A study of Mus musculus with 14 samples.

Results

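The trophectoderm genes described here are 10 genes chosen by name: the transcription factor genes Tead4, Cdx2, Gata3, Eomes, Tfap2c, Elf5, Hand1 and Ascl2 and the keratin genes Krt8 and Krt18. All 10 were found among 21887 protein-coding genes. Their histone marks were read from lists of enriched regions (peaks) from ChIP-Seq (precipitation of chromatin with an antibody, then sequencing) in mouse embryonic stem cells. These cells carried Mll1fl/fl alleles and Cre-ER TM on the C57BL/6J strain, in every group. They were grown without feeder cells on Matrigel in KO DMEM with LIF, 5% serum and 15% KSR. One group was untreated, the second was given MM-401 at 100 µM, and the third was given 4-OHT (4-hydroxytamoxifen) at 5 µM, which activates the Cre recombinase so as to delete Mll1. Both treatments lasted 9 days over 3 passages. All 3 groups were profiled for lysine 4 of histone H3 carrying 1, 2 or 3 methyl groups (H3K4me1, H3K4me2, H3K4me3), and the untreated cells also for the Mll1 protein. With 1 library for each group and mark there is no test between libraries and no p, and both treatments were compared with the same untreated libraries.

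The trophectoderm is the outer cell layer of the blastocyst and the source of the placenta, whereas embryonic stem cells come from the inner cell mass. In outer cells TEAD4, with its cofactor YAP, switches on Cdx2 and Gata3, and Eomes, Elf5, Tfap2c, Ascl2 and Hand1 act in trophoblast stem cells and their progeny. Embryonic stem cells keep most of these genes silent or low while many of their promoters still carry methylated H3K4. H3K4me3 usually marks where genes begin, H3K4me1 marks enhancers and the borders of promoters, and H3K4me2 occurs at both. Mll1 (Kmt2a) is one of several enzymes that methylate this lysine, and MM-401 blocks its contact with the cofactor WDR5.

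The members differed in how many CpG dinucleotides their promoters held, a feature that over all promoters went with H3K4me3 at the start but did not order the members by it, so 5 promoters are shown. The sequences are from RefSeq on GRCm38.p6 (mm10), 5′ to 3′ on the strand of the gene, from 250 bases before to 50 bases after an annotated start. Capitals mark each CG, counted on the printed strand (CG reads the same on both). The first Elf5 promoter (chr2:103411848-103412147, plus strand) had 3 CpG, and the second (chr2:103423818-103424117, plus strand) had 10. Those of Krt8 (chr15:102004293-102004592, minus strand), Eomes (chr9:118477939-118478238, plus strand) and Gata3 (chr2:9878551-9878850, minus strand) had 6, 10 and 22.
Elf5 start 1: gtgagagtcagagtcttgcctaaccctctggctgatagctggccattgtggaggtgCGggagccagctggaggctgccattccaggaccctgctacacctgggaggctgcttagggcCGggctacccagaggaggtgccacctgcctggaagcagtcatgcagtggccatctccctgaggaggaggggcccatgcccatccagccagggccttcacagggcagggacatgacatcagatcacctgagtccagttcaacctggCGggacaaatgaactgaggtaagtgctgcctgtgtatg
Elf5 start 2: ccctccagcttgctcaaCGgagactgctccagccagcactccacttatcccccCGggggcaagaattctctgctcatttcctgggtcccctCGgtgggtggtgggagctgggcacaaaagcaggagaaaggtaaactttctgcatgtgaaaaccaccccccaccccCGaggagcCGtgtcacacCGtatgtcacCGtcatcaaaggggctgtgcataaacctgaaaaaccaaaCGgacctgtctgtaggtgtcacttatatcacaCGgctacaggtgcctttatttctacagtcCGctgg
Krt8: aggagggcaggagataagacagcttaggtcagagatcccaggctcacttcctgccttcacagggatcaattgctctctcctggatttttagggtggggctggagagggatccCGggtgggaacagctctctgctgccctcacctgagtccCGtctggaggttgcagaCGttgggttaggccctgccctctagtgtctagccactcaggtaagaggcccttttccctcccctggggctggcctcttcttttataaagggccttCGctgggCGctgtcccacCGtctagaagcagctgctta
Eomes: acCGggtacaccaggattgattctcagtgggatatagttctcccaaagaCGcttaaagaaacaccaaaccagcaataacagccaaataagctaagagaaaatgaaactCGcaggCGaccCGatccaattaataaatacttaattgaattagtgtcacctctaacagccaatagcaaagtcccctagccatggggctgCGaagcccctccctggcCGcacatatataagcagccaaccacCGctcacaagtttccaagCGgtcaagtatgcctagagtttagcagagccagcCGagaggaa
Gata3: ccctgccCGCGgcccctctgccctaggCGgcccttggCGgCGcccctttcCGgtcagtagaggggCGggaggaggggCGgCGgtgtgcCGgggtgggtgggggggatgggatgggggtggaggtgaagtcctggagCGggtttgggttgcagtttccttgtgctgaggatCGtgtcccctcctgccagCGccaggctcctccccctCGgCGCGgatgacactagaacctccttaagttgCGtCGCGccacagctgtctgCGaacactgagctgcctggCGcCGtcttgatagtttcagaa
A promoter was matched for 7 of the 10 members. Cdx2 had 18 CpG, Krt18 had 17 and Ascl2 had 23. Among 21263 promoters of coding genes the median was 13. H3K4me3 peaks lay within 1 kb of the start for 14.3% of all promoters with 0 to 4 CpG, 58.4% of those with 5 to 9, and 96.5% of those with 10 to 19. Elf5 start 1 falls in the first of these classes, and Krt8, which had a peak, in the second. Elf5 start 2 and Eomes both held 10 CpG, yet Eomes had a start peak of 73.4 tags per M and Elf5 start 2 had none. Of the members' 8 promoters, the letters TATAAA occurred in that of Krt8 alone on either strand, and in 12.6% of all promoters. GGAATG, the core that TEAD factors recognise, occurred on either strand in Elf5 start 1 alone, and in 13.6% of all promoters. On the printed strand of Elf5 start 1 it reads CATTCC.

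**Figure D1:**
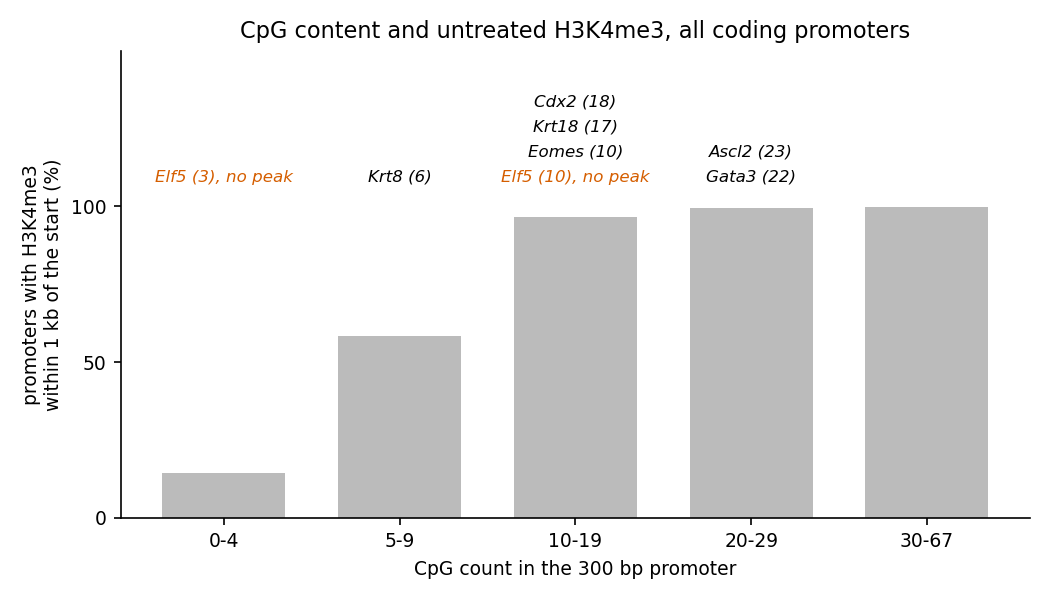
Share of coding-gene promoters with an untreated H3K4me3 peak within 1 kb of the start (y axis, percent) by the number of CpG in the 300 bp promoter (x axis), with each matched member's CpG count above its class. The 2 Elf5 starts are the only member starts without a peak, 1 of them in a class where 96.5% of promoters have one.

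Depth and cell identity bear on all that follows. The libraries held 12.9 M to 61.8 M tags after removal of duplicates (M is 1000000 tags), and the MM-401 libraries were the shallowest of each mark. Per the file headers the MM-401 libraries were processed in another folder than the rest, so folder and MM-401 cannot be told apart. Peaks of H3K4me3 lay at a gene end of 7 of 8 stem cell genes (all but Esrrb) with a median of 119 tags per M in untreated cells. Of 6 fibroblast genes 4 had one, with a median of 7.20 tags per M and with Col3a1 and Dcn at none. Of 6 primitive endoderm genes 4 had one (not Gata4 or Dab2), with a median of 44.8. The trophectoderm genes had one at 9 of 10, with a median of 35.3. These medians are sums of tags and do not rank the lists. Peak lists do not show whether the Mll1 deletion took place: H3K4me3 in the window of Mll1 (Kmt2a) itself stood at 136 tags per M in untreated, 145 in MM-401 and 137 in 4-OHT cells. In the same window H3K4me1 was 47.8, 51.4 and 80.0 tags per M, and H3K4me2 was 76.4, 81.3 and 89.6.

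The level of a gene is the sum of tags in all peaks inside it or within 10 kb of either end, per M filtered tags of the library, and its density is the same sum per kb of peak. Intervals are exact at 95% and cover counting error only. In bulk chromatin, fewer cells with a mark and less mark per cell cannot be told apart. By density of H3K4me3 over the window in untreated cells, which allows for covered length, Tfap2c stood first with 16.6 tags per M per kb. Ascl2 followed with 11.7 and Eomes with 10.6, and the intervals of these 2 overlapped. Tead4 had 7.63, and Krt8, Krt18, Cdx2 and Gata3 lay between 6.59 and 5.67, each overlapping its neighbour in the order. Hand1 had 4.26 and Elf5 2.13. This order depends on the window. In the peaks within 1 kb of a matched start, Eomes had 14.8 tags per M per kb, Ascl2 11.7 and Gata3 9.08. There Krt18 had 8.86, Cdx2 8.05 and Krt8 6.59. The densities of H3K4me1 were far closer together, from 2.00 at Krt18 to 3.03 at Tead4, and those of H3K4me2 ran from 1.84 at Elf5 to 9.23 at Ascl2.

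**Figure D2:**
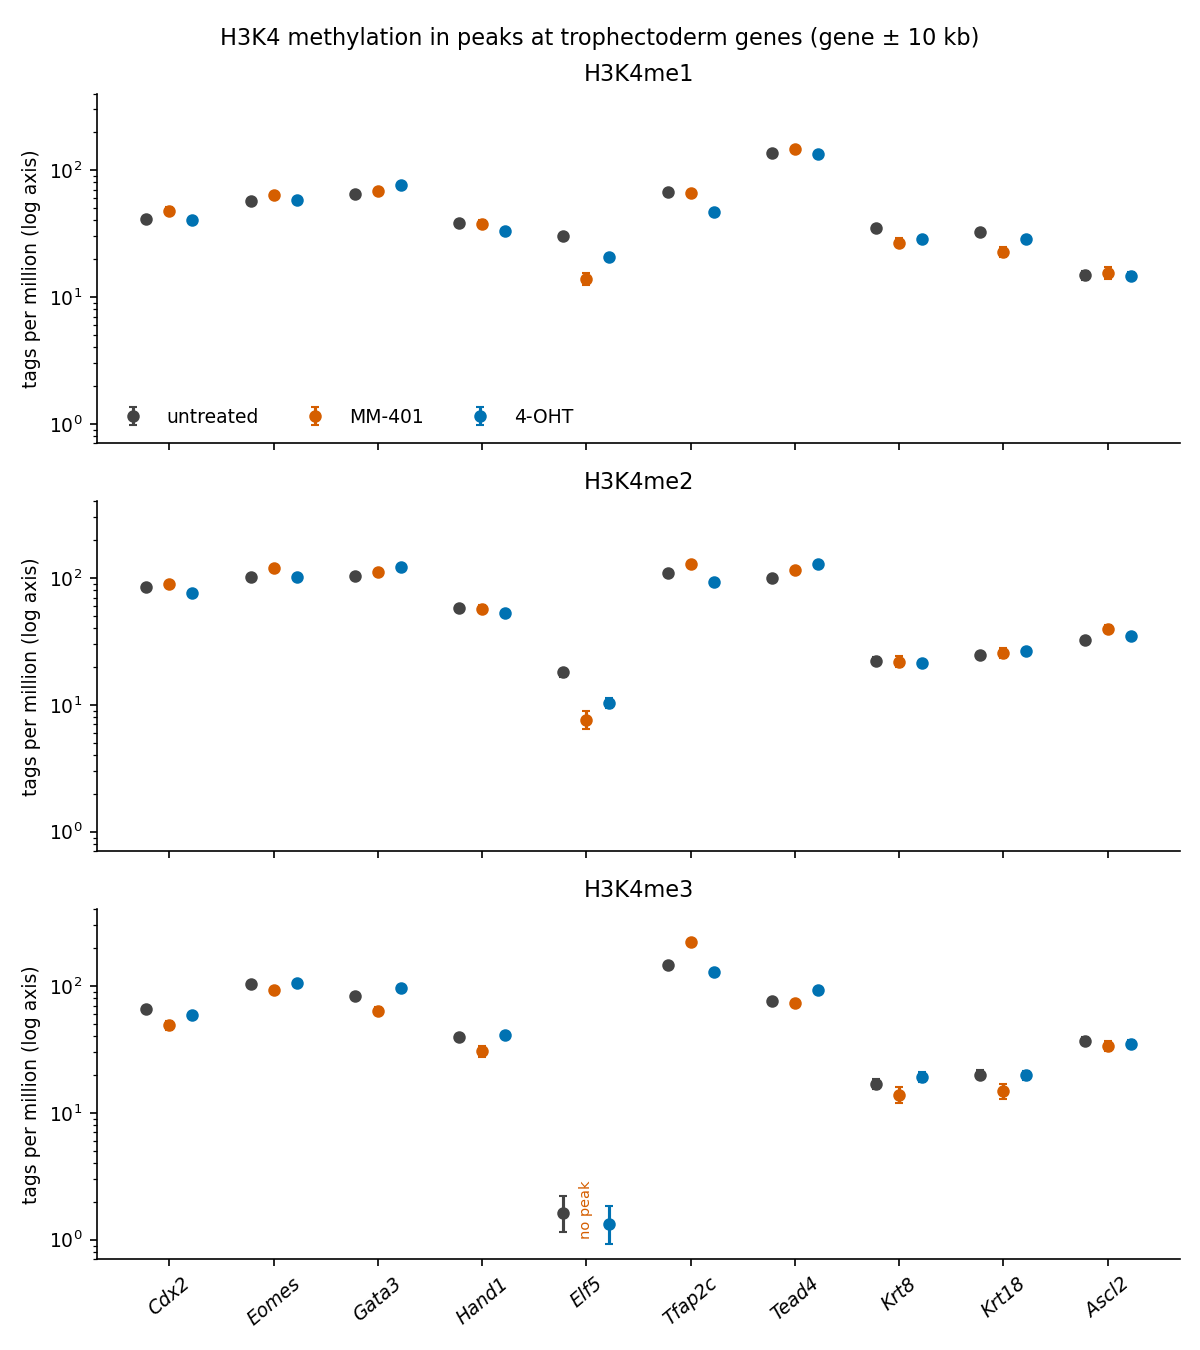
Tags per M filtered tags in all peaks of each gene's window (y axis, log scale) for the 10 genes (x axis) in 1 untreated, 1 MM-401 and 1 4-OHT library of each mark, with exact 95% counting intervals. In untreated cells Elf5 has the lowest H3K4me3, at 1.62, and Tfap2c the highest, at 147.

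Few of these genes differed strongly from untreated cells under either treatment. A difference of at least 1.5-fold was used to call a gene, and at most 1 of the 10 members was called in any comparison. After MM-401, 1 of 10 was called for H3K4me1 (Elf5, lower) against 16.8% of all coding genes, and 1 of 10 for H3K4me2 (Elf5, lower) against 5.91%. For H3K4me3, 1 of 9 compared members was called (Tfap2c, higher) against 9.23%. With 4-OHT none was called for H3K4me1 against 14.9%, 1 for H3K4me2 (Elf5, lower) against 5.07%, and none for H3K4me3 against 4.52%. Counts of 0 or 1 in 10 genes are near these background shares.

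By sign alone, the direction of the smaller differences was most uniform for H3K4me3 after MM-401 and for H3K4me1 with 4-OHT. For H3K4me3 after MM-401 8 of 9 compared members were lower than in untreated cells, against 39.0% of all genes, and 1 was higher. The median log2 ratio was -0.28 for the members and 0.09 for all genes, and the same split was obtained under both other depth scalings. Among these 8 lower members, the counting intervals of the ratio held 1 at Tead4 and Ascl2, so their sign is not settled. With 4-OHT 5 of 10 members were lower for H3K4me3, against 44.8% of all genes, and 7 were lower per M tags inside peaks. For H3K4me1 with 4-OHT 8 of 10 were lower, against 30.0% of all genes, with medians of -0.11 and 0.15. Under both other scalings 9 of 10 were lower, against 40.1% of all genes per M tags inside peaks. Among the 8 members lower per M filtered tags, Cdx2, Ascl2 and Tead4 were nearly level, and their intervals of the ratio held 1. Krt8 and Krt18, also among the 8, share 1 H3K4me1 peak, so their signs are not independent. After MM-401 5 of 10 were lower for this mark, against 64.3%, and 3 were under both other scalings. For H3K4me2 after MM-401 3 of 10 were lower, against 36.7%, and 5 were relative to the all-gene median. With 4-OHT 6 of 10 were lower for H3K4me2, against 39.2%, and 8 were per M tags inside peaks.

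**Figure D3:**
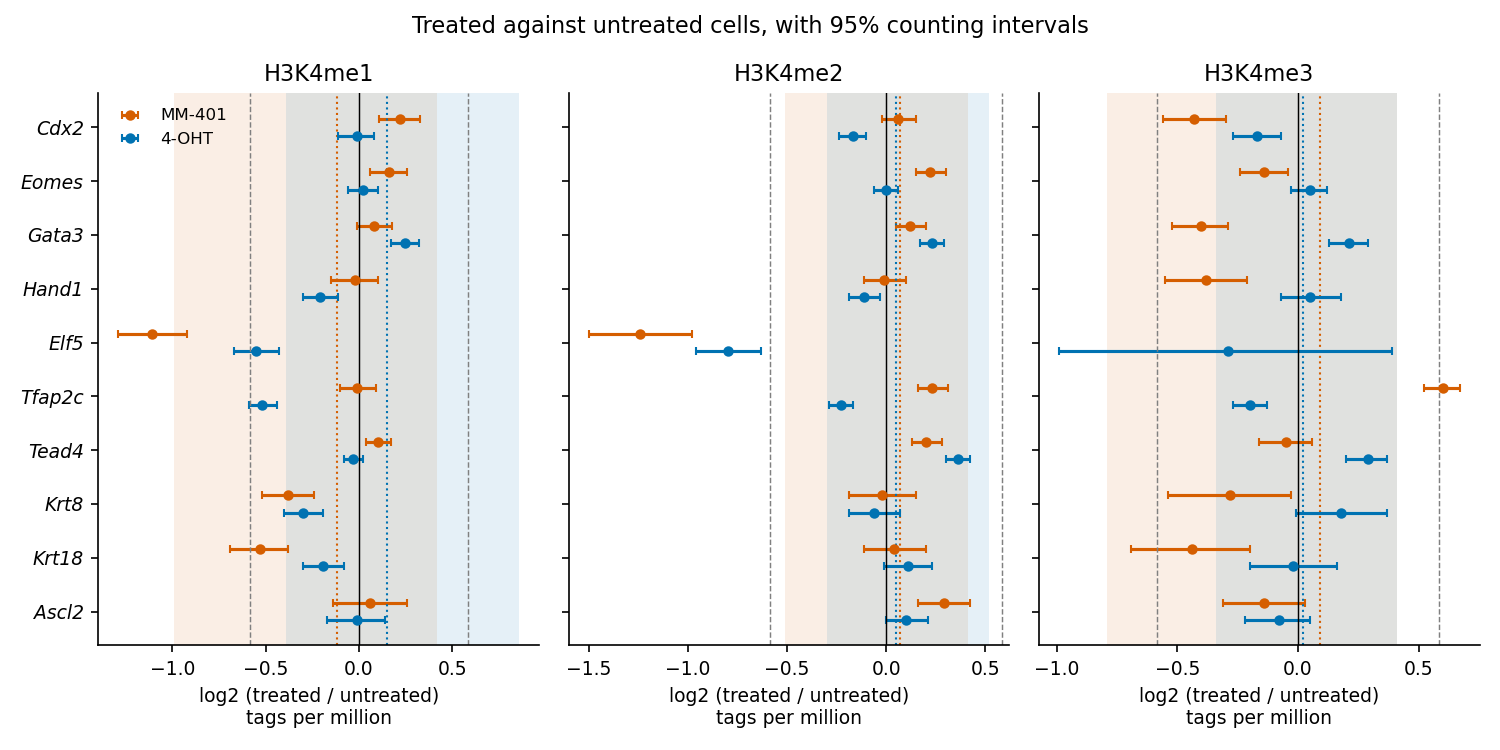
log2 ratio of treated to untreated tags per M (x axis) for each gene (y axis) and mark, as points with 95% counting intervals. Dotted lines are the medians of all coding genes, shaded bands span their 5th to 95th percentiles (orange for MM-401, blue for 4-OHT, grey where both overlap), and dashed lines mark 1.5-fold. The Elf5 points of H3K4me1 and H3K4me2 lie farthest left, and the Tfap2c point of H3K4me3 after MM-401 lies farthest right.

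Elf5, an ETS-family factor that maintains trophoblast stem cells and whose promoter is known to carry DNA methylation in embryonic stem cells, was the member with the lowest H3K4me2 and H3K4me3 levels and with the largest shifts of H3K4me1 and H3K4me2. The gene spans chr2:103412098-103450989 (mm10). No peak of any mark came within 1 kb of either gene end in any condition. Its window held 30.0 tags per M of H3K4me1 in untreated, 13.9 in MM-401 and 20.5 in 4-OHT cells. The ratios to untreated were 0.46 (0.41 to 0.53) and 0.68 (0.63 to 0.74), which are at percentiles 3.7 and 2.7 of all genes. H3K4me2 stood at 18.0 tags per M in untreated, 7.62 in MM-401 and 10.4 in 4-OHT cells. Its ratios were 0.42 (0.35 to 0.51) and 0.58 (0.51 to 0.65), at percentiles 0.9 and 0.6. Summed over listed peaks, both marks were thus lower in each treated library than in the untreated one, with intervals of the ratio clear of 1. A region without a listed peak added no tags to these sums. The intervals do not cover tags that such a region may hold.

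Most of the Elf5 difference lay inside the gene. H3K4me1 in the region 22002 to 26357 bp from the first start went from 12.1 to 5.36 tags per M after MM-401 and 6.85 with 4-OHT. H3K4me2 in the region 23436 to 25932 bp from that start went from 4.77 to 2.27 and 1.63. At the second start, H3K4me1 was 3.85 tags per M in untreated cells, had no peak after MM-401 and was 3.95 with 4-OHT. H3K4me2 there was 3.97, had no peak after MM-401 and was 2.12 with 4-OHT. A peak 46088 to 49003 bp from the first start, which lies in the neighbouring catalase gene Cat, was nearly level for H3K4me1 at 7.05, 6.57 and 7.12 tags per M, and H3K4me2 there was 3.37, 2.52 and 3.66. A weak H3K4me1 peak before the gene, -5291 to -4332 bp from the first start, held 1.25 tags per M and had no counterpart in either treated list. A window of 5 kb keeps that weak peak and leaves out the nearly level peak in Cat. In it the log2 ratios of H3K4me1 were -1.64 after MM-401 and -0.78 with 4-OHT, in place of -1.11 and -0.55.

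Summed over the window, the Elf5 change after MM-401 was in covered length rather than in density. Covered length was lower along with the tags, at 0.45 of untreated for H3K4me1 and 0.40 for H3K4me2, and the density ratios were 1.03 and 1.05. As log2 ratios these were 0.04 and 0.08, below the medians of all coding genes, 0.23 and 0.28. Within the H3K4me1 region 22002 to 26357 bp from the first start, density went from 2.78 to 2.30 tags per M per kb after MM-401. Of 7 untreated H3K4me1 peaks 4 had no MM-401 counterpart and 2 had no 4-OHT counterpart, and of 6 H3K4me2 peaks 3 and 2 had none. The MM-401 libraries were shallower than the untreated ones, and the 4-OHT libraries were deeper. With the lists of each mark reduced to the same number of peaks by score, the log2 ratios of H3K4me1 were -0.90 after MM-401 and -0.61 with 4-OHT, and those of H3K4me2 -1.03 and -1.24. H3K4me3 consisted of a single peak inside the gene with 41 tags in untreated cells (1.62 tags per M), none after MM-401 and 35 tags with 4-OHT (1.33 tags per M, ratio 0.82, 0.50 to 1.31).

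**Figure D4:**
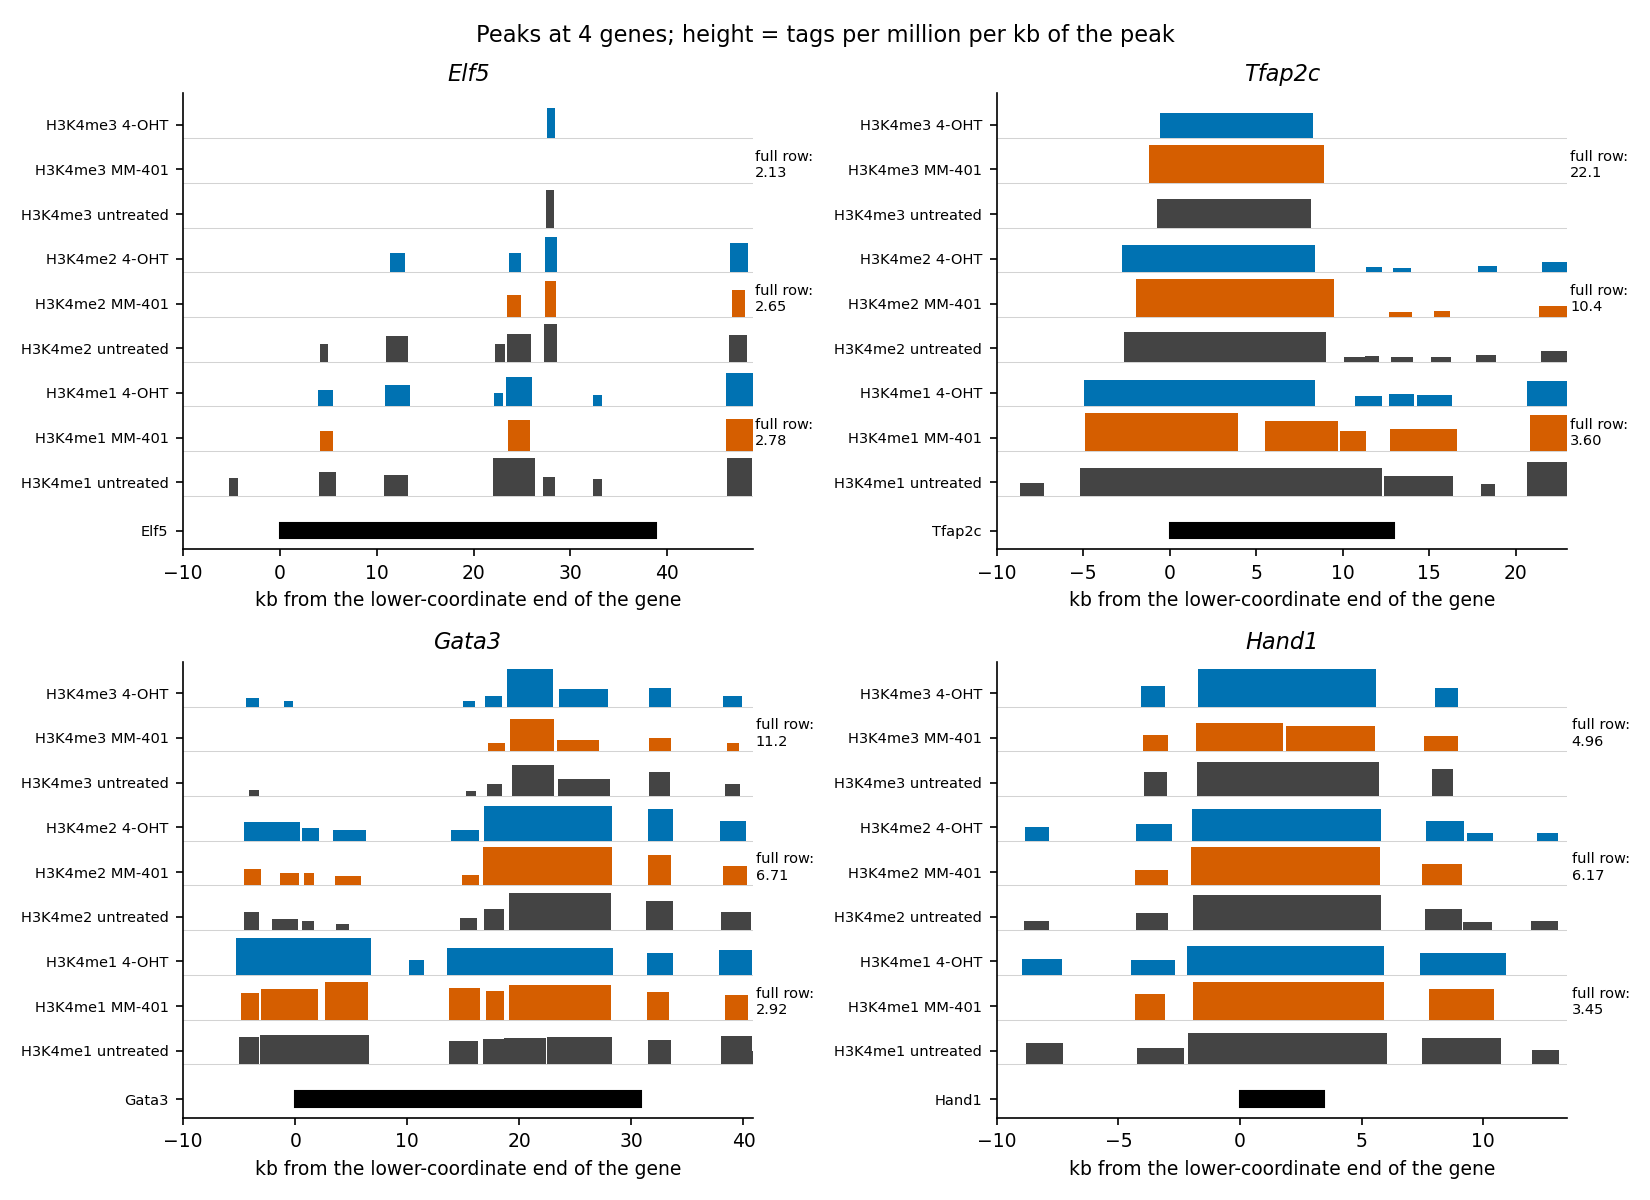
Peaks of each mark and condition (rows) at Elf5, Tfap2c, Gata3 and Hand1, drawn by distance in kb from the lower-coordinate end of the gene (x axis). Bar height is the tags per M per kb of the peak. Its scale is shared by the rows of a mark within a gene and differs between genes. At Elf5 the rows hold no peak within 1 kb of the gene ends, while the Tfap2c H3K4me3 row after MM-401 reaches 22.1 tags per M per kb.

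Tfap2c encodes the AP-2γ factor of trophoblast and germ cells, and it was the only member with more H3K4me3 after MM-401. The gene spans chr2:172545678-172558622 and carried 1 broad H3K4me3 peak. This peak held 147 tags per M in untreated, 222 in MM-401 and 128 in 4-OHT cells, and it was 8888, 10088 and 8807 bp wide. The ratio was 1.51 (1.44 to 1.59) after MM-401, at percentile 98.8 of all genes, and 0.87 (0.83 to 0.91) with 4-OHT. The rise was mostly in density, from 16.6 to 22.1 tags per M per kb. As a log2 ratio the density rise was 0.41, against a median of 0.20 over all coding genes. The rise in tags lay just past 1.5-fold. It was not called per M tags inside peaks (log2 ratio 0.54 in place of 0.60) or relative to the all-gene median (0.51). H3K4me2 moved the same ways, at 109, 128 and 93.1 tags per M. H3K4me1 was level after MM-401, at 66.5 and 66.3, and lower with 4-OHT, at 46.5 (ratio 0.70, 0.66 to 0.74). With 4-OHT the broad H3K4me1 region over the gene went from 45.5 to 34.3 tags per M. The region 12370 to 16607 bp from the lower gene end went from 7.46 to 3.82 with 4-OHT and was 7.97 after MM-401. Another 2 weak regions, of 1.65 and 0.976 tags per M, had no peak in either treated list.

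Tead4, the DNA-binding partner of YAP that starts the trophectoderm programme, showed wider marks with 4-OHT. The gene spans chr6:128227143-128300813. Its H3K4me3 was 75.4 tags per M in untreated, 72.8 in MM-401 and 92.0 in 4-OHT cells. The ratio with 4-OHT was 1.22 (1.15 to 1.30), at percentile 91.0, and the covered length was 1.65 times the untreated one, from 9.9 to 16.3 kb. The peak at the upper-coordinate end of the gene was nearly level at 56.1, 60.8 and 58.1 tags per M. The added tags were inside the gene. The region 51544 to 54834 bp from the lower end went from 9.42 to 14.4 tags per M with 4-OHT and was 8.97 after MM-401. The region 68636 to 70482 bp from that end went from 2.14 to 4.62 tags per M and that at 47522 to 49913 bp from 2.85 to 5.22. After MM-401 no H3K4me3 peak was listed in either of these last regions. H3K4me2 was 100 tags per M in untreated, 116 in MM-401 and 129 in 4-OHT cells (4-OHT ratio 1.28, 1.23 to 1.34). With 4-OHT 3 untreated H3K4me2 peaks of together 9538 bp were replaced by 1 peak of 13876 bp. H3K4me1, at 136, 147 and 134 tags per M, changed little.

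Cdx2 encodes the caudal-type homeodomain factor that specifies trophectoderm, and it lost some H3K4me3 under each treatment. The gene spans chr5:147300900-147307249 on the minus strand, and its window also takes in Gm35112 and the coding gene Urad. Its H3K4me3 was 66.0 tags per M in untreated, 49.0 in MM-401 and 58.6 in 4-OHT cells, with ratios of 0.74 (0.68 to 0.81) and 0.89 (0.83 to 0.95). The start peak was lower after MM-401, from 32.4 to 25.1 tags per M, and so was the rest of the window, from 33.6 to 24.0. The region from -8991 to -6016 bp of the lower gene end, downstream of the gene, had the lowest ratio, from 11.8 to 7.27 tags per M (ratio 0.61, 0.48 to 0.78). H3K4me2 did not follow after MM-401, at 84.9 and 88.7 tags per M, and was 75.4 with 4-OHT. H3K4me1 was 41.0, 47.8 and 40.6 tags per M.

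Gata3, a zinc-finger factor that acts in parallel with Cdx2, had less H3K4me3 after MM-401 and more with 4-OHT. The gene spans chr2:9857078-9887953, with the annotated start at 9878600 on the minus strand, and its window also takes in 4930412O13Rik and 9230102O04Rik. Its H3K4me3 was 83.7 tags per M in untreated, 63.3 in MM-401 and 96.8 in 4-OHT cells, with ratios of 0.76 (0.70 to 0.82) and 1.16 (1.09 to 1.23). After MM-401 the start peak was not lower, at 34.0 and 37.0 tags per M (ratio 1.09, 0.97 to 1.22). The rest of the window fell from 49.7 to 26.3 (0.53, 0.47 to 0.60). With 4-OHT the start peak was higher, at 45.8 tags per M (1.35, 1.24 to 1.47), and the rest level, at 51.0. Most of the fall after MM-401 was upstream of the annotated start, past which the gene span extends. Only 1 start was matched for this gene, so other starts in that stretch were not assessed. The region next to the start peak, still inside the span, went from 23.7 to 12.4 tags per M. The 2 regions farther upstream, outside the span, went from 13.5 to 7.35 and from 4.71 to 2.79. Downstream, 1 region went from 4.91 to 3.79 tags per M, and another 2, of 1.35 and 1.62, had no MM-401 peak. For H3K4me2 the rise with 4-OHT was clearest downstream of the gene and at its 3′ end. There it went from 8.61 to 16.3 tags per M in the region -4599 to 420 bp from the lower gene end, from 1.80 to 3.35 in the next and from 1.42 to 5.56 in the one after that. Over the whole window H3K4me2 was 103, 112 and 121 tags per M and H3K4me1 64.6, 68.5 and 76.6.

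Eomes, the T-box factor that sustains trophoblast stem cells and is expressed with Cdx2 in trophectoderm, differed little between conditions in H3K4me3 at its start. The gene spans chr9:118478186-118486132 on the plus strand. Its H3K4me3 was 103 tags per M in untreated, 93.3 in MM-401 and 106 in 4-OHT cells. The start peak held 73.4, 72.2 and 70.3 tags per M, and the rest of the window 29.6, 21.1 and 36.2. Nearly all of that rest was 1 peak just past the gene's 3′ end, at 28.2, 21.1 and 34.7 tags per M, which was low after MM-401 and high with 4-OHT. H3K4me2 was 102, 119 and 102 tags per M and H3K4me1 56.8, 63.5 and 57.7. The H3K4me1 region over the start held 7.0, 9.27 and 7.30 tags per M (MM-401 ratio 1.33, 1.1 to 1.6). A sum within 1 kb of the start would read 23.2 after MM-401, since the next peak, part of a region of 14.1, 14.0 and 10.5 tags per M, came within that distance in MM-401 cells alone.

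Among the members with a matched start and peaks in both places, the H3K4me3 ratio after MM-401 was lower in the rest of the window than at the start. For Cdx2 the ratios were 0.77 at the start and 0.71 in the rest, for Eomes 0.98 and 0.71, and for Gata3 1.09 and 0.53. At Krt18 the peak away from the start, 4.35 tags per M in untreated cells, was not listed after MM-401, while its start peak was 15.7 and 14.8. Over 7312 coding genes with both, the median ratios were 1.12 at the start and 0.91 in the rest, and 70.9% had the lower ratio in the rest. With so few members compared, their lower ratio in the rest is near this background share. At Cdx2 the intervals at the start (0.68 to 0.88) and in the rest (0.62 to 0.81) overlapped. The ratios of Cdx2, Eomes and Gata3 lay below the all-gene median in each place.

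**Figure D5:**
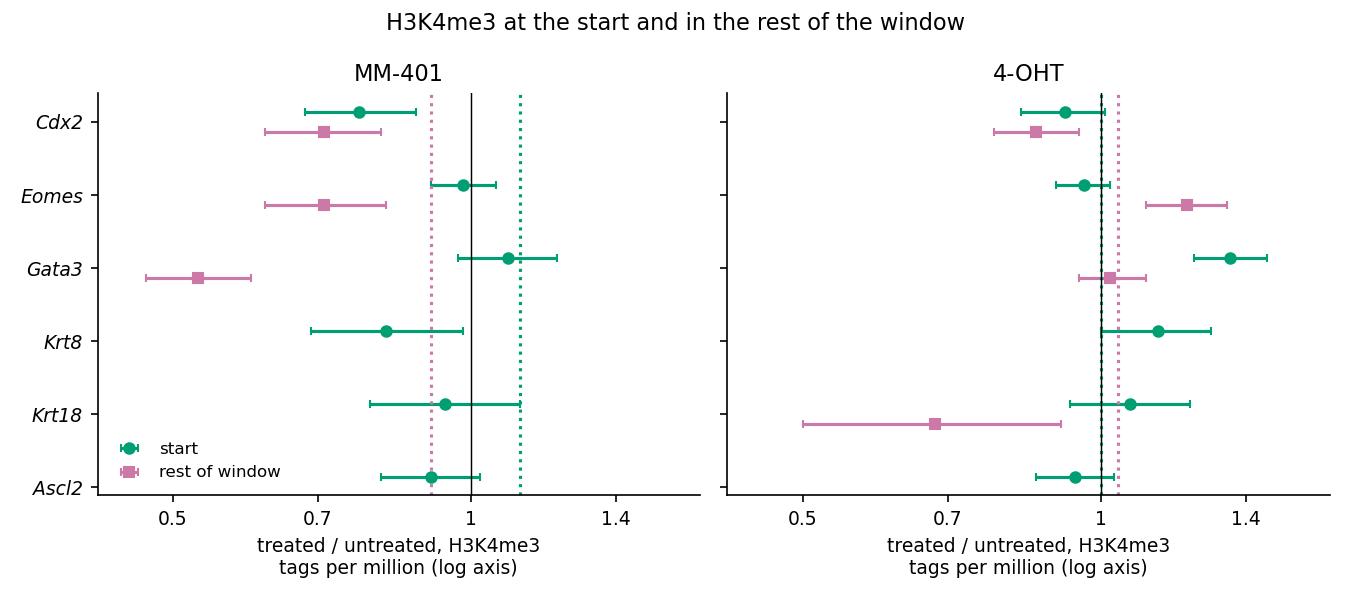
Ratio of treated to untreated H3K4me3 tags per M (x axis, log scale) within 1 kb of the start (circles) and in the rest of the window (squares) for 6 genes with a matched start and a peak there, with 95% counting intervals. Dotted lines are the medians of all coding genes, 1.12 for starts and 0.91 for the rest after MM-401; a missing square means no peak in 1 or both libraries.

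Hand1 encodes a basic helix-loop-helix factor needed for trophoblast giant cells, and its broad H3K4me3 peak was listed as 2 peaks after MM-401. The gene spans chr11:57828713-57832147. A peak of 7488 bp covered it in untreated cells and one of 7293 bp with 4-OHT, whereas MM-401 cells had 2 peaks of 3567 and 3696 bp over the same stretch. Together they held 25.5 tags per M, against 33.6 in untreated and 36.2 in 4-OHT cells. The ratio of this stretch after MM-401 was 0.76 (0.67 to 0.86), and the ratio of the whole window was 0.77 (0.68 to 0.87), from 39.6 to 30.5 tags per M. Singly these 2 peaks held 13.4 and 12.1 tags per M. They covered 7263 bp of the 7498 bp that the peaks of all 3 lists span here, so the gap was short. The MM-401 library held 12.9 M tags against 25.3 M in the untreated one, and whether depth played a part was not tested. H3K4me2 kept 1 peak there, of 7759 bp in untreated and 7761 bp in MM-401 cells. Over the window H3K4me2 was level at 57.4, 57.1 and 53.1 tags per M, and H3K4me1 was 38.0, 37.4 and 33.0.

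Ascl2, an imprinted basic helix-loop-helix gene required in the placental spongiotrophoblast, had 1 compact H3K4me3 peak over the whole gene. The gene spans chr7:142966822-142969264 on the minus strand. H3K4me3 was 36.9 tags per M in untreated, 33.5 in MM-401 and 34.8 in 4-OHT cells, and both intervals of the ratio held 1. H3K4me2 was 32.4, 39.6 and 34.8 tags per M, and its ratio after MM-401, 1.22 (1.12 to 1.34), was the highest of the members for that mark. H3K4me1 was 14.8, 15.3 and 14.6 tags per M.

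Krt8 and Krt18 encode the simple-epithelium keratin pair that trophectoderm expresses strongly, and they lie next to each other on chromosome 15. Krt8 spans chr15:101996711-102004342 on the minus strand and Krt18 chr15:102028216-102032026 on the plus strand. Their windows share 1 H3K4me1 peak of 6842 bp, so their H3K4me1 levels are not independent. That shared region held 14.5 tags per M in untreated, 9.14 in MM-401 and 11.8 in 4-OHT cells (MM-401 ratio 0.63, 0.53 to 0.74). MM-401 cells had 2 peaks there, of 2.75 and 6.39 tags per M, and each window took in only 1 of them. By window H3K4me1 at Krt8 was thus 35.0, 26.8 and 28.5 tags per M and at Krt18 32.6, 22.5 and 28.6. With the shared region counted whole for both genes, the MM-401 levels were 33.2 at Krt8 (ratio 0.95, 0.87 to 1.04, in place of 0.77) and 25.2 at Krt18 (ratio 0.77, 0.70 to 0.86, in place of 0.69). The region over the Krt8 start held more H3K4me1 after MM-401, 18.2 against 14.1 tags per M. Krt8 H3K4me3 was 16.9 tags per M in untreated, 13.9 in MM-401 and 19.2 in 4-OHT cells, with ratios of 0.82 (0.69 to 0.98) and 1.14 (1.00 to 1.29). Krt18 H3K4me3 was 20.0, 14.8 and 19.8 tags per M. H3K4me2 was nearly level at both, at 22.2, 21.9 and 21.2 for Krt8 and 24.7, 25.4 and 26.7 for Krt18.

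Peaks at the members were lost more often than gained after MM-401, as over the genome. Of 56 untreated H3K4me1 peaks in the 10 windows 14 had no overlapping MM-401 peak (25.0%, against 34.4% of all untreated peaks). For H3K4me2 the number was 12 of 55 (21.8%, against 33.8%) and for H3K4me3 9 of 30 (30.0%, against 38.2%). No peak was gained after MM-401, against 3.36% of all MM-401 peaks for H3K4me1, 2.70% for H3K4me2 and 0.864% for H3K4me3. The lost H3K4me3 peaks were weak, with a median of 41 tags against 396 for those kept; whether depth played a part was not tested. With 4-OHT 8 of 56 H3K4me1 peaks (14.3%, against 9.35%), 4 of 55 H3K4me2 peaks (7.27%, against 6.44%) and 1 of 30 H3K4me3 peaks (3.33%, against 8.19%) had no counterpart. Gained with 4-OHT were 4 of 49 peaks for H3K4me1 (against 16.7% of all 4-OHT peaks), 4 of 52 for H3K4me2 (against 18.2%) and 3 of 32 for H3K4me3 (against 15.6%). The 3 gained H3K4me3 peaks were at Tead4, with 2, and at Gata3.

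No member lost its last H3K4me1 or H3K4me2 peak after MM-401, as 4.30% and 3.23% of all genes with a peak did, and Elf5 lost its last H3K4me3 peak, as 4.32% did. With 4-OHT no member lost its last peak of any mark, against 0.674% of genes for H3K4me1, 0.554% for H3K4me2 and 0.943% for H3K4me3.

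When peaks that touch across the 3 lists were joined into regions, those that moved by 1.5-fold were at 8 members, and none was at Eomes or Ascl2. After MM-401 4 of 21 compared H3K4me3 regions were lower, against 19.9% of all regions, 3 of them at Gata3 and 1 at Cdx2, and 1 was higher, that of Tfap2c, against 3.71%. With 4-OHT 4 of 29 were higher, against 10.1%, 3 at Tead4 and 1 at Gata3, and none was lower, against 6.04%. For H3K4me2 with 4-OHT 4 of 45 regions were higher, against 9.98%, 3 at Gata3 and 1 at Tead4. Another 4 were lower, against 5.95%, 2 at Elf5 and 1 each at Krt8 and Hand1. After MM-401 4 of 38 H3K4me2 regions were higher, against 7.92%, 3 at Tead4 and 1 at Gata3, and 2 were lower, against 9.36%, at Elf5 and Tead4. For H3K4me1 none of 36 compared regions was higher after MM-401, against 8.63%, and 3 were lower, against 9.97%, at Gata3, at Elf5 and in the region shared by Krt8 and Krt18. With 4-OHT none of 42 was higher, against 10.1%, and 4 were lower, against 7.35%, 2 at Elf5 and 1 each at Krt8 and Tfap2c.

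The Mll1 library gave 2 peaks in the members' windows, at Gata3 and at Tfap2c, and 15.8% of all coding genes had one. The Gata3 peak (chr2:9855405-9855555) lay 1523 bp beyond the 3′ end of the gene and held 11 tags at a false discovery rate of 3.04%. It lay on untreated H3K4me1 and H3K4me2 peaks but on no H3K4me3 peak, in the region where H3K4me2 went from 8.61 to 16.3 tags per M with 4-OHT. The Tfap2c peak (chr2:172547246-172547396) lay inside the gene, held 10 tags at a false discovery rate of 2.21%, and sat on peaks of all 3 marks. Another, near Tead4, lay 27760 bp from the gene. The other members had none within 50 kb. The Mll1 list as a whole was weak, with 4004 peaks, a median of 11 tags and 0.285% of the tags in peaks, so absence from it is a limit of this list and is not read as absence of the protein.

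A companion list of 40 genes of the trophoblast and the Hippo pathway was measured in the same way, and all 40 were found. After MM-401, 2 of 37 compared genes were at least 1.5-fold higher and 2 lower for H3K4me1, against 2.51% and 14.3% of all genes. For H3K4me3 3 of 38 were higher and 2 lower, against 1.29% and 7.93%. For H3K4me2 1 of 38 was higher and none lower, against 1.76% and 4.15%. With 4-OHT 4 of 38 were higher and 1 lower for H3K4me1, against 12.5% and 2.39%, none of 38 was higher or lower for H3K4me2, against 3.64% and 1.42%, and 3 of 38 were higher and none lower for H3K4me3, against 2.73% and 1.79%. Fgfr2, the receptor through which FGF4 supports trophoblast stem cells, was higher after MM-401 for each mark, with H3K4me3 from 49.5 to 76.0 tags per M. Cldn4, a tight-junction claudin, had 55.8 tags per M of H3K4me3 in untreated, 108 in MM-401 and 92.9 in 4-OHT cells. Esrrb, which serves both stem cell types, had 276 tags per M of H3K4me3 in untreated, 412 in MM-401 and 465 in 4-OHT cells. Cdh1, the epithelial cadherin, had 114, 136 and 211. Lats1, a kinase that restrains YAP, had 23.8 tags per M of H3K4me1 in untreated and 66.1 in 4-OHT cells. Ets2, a factor active in trophoblast, had 9.87 and 19.8. Esrrb had 199 tags per M of H3K4me1 in untreated, 378 in MM-401 and 359 in 4-OHT cells. Among the lower genes, H3K4me1 after MM-401 was 4.28 tags per M against 7.86 at Esx1, a homeobox gene of the placenta, and 65.5 against 99.7 at Amotl1, an angiomotin-family partner of YAP. With 4-OHT it was 12.6 against 21.9 at the keratin gene Krt7. Plet1, a trophoblast surface protein, was low for H3K4me3 after MM-401, at 5.57 tags per M against 9.85. Gcm1 was lower still for that mark and treatment, at 3.02 against 7.20 (ratio 0.42, 0.29 to 0.59). With 39 tags after MM-401 it fell short of the 50 tags needed to be ranked. The other highest and lowest genes among those ranked, 2 of each per mark and treatment, lay within 1.5-fold, with ratios from 0.73 to 1.43.

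The genes whose 9 levels (3 marks by 3 conditions) were most like each member's were found by Euclidean distance on log2(tags per M + 1). Sstr4 and Thbd, which share their peaks, were nearest to Ascl2 at 0.21, followed for the other members by Bcl7c for Eomes at 0.27. Gad1 and Sim2 were nearest to Cdx2, at 0.34 and 0.36, Rell1 to Tead4 at 0.34, Kcnn4 to Krt18 at 0.36 and Gstm6 to Krt8 at 0.38. Vstm2l was nearest to Hand1 at 0.40, Nphs1 to Gata3 at 0.44 and Celsr2 to Tfap2c at 0.64. Elf5 had the most distant neighbours, Calr4 at 0.79 and Spaar at 0.80.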

How the data were processed

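Chromatin of mouse embryonic stem cells was fixed with 1% PFA for 10 minutes and precipitated with about 4 µg of antibody for Mll1 or 2 µg for each mark, per the labels' protocols. There were 14 libraries: 10 precipitated ones with a peak list each and 4 inputs, used only as the authors' controls. Per the file headers, the authors called peaks in each library alone against 1 input with MACS 1.4.2 at a p cutoff of 1e-05. The submitters' processing notes name Bowtie2, SAMtools 1.5, MACS2 and the build mm10, so notes and headers differ on the caller, and the headers were followed. As deposited, the count of a peak is its number of tags once duplicates were dropped, with no scaling by depth. Its deposited score is a negative log10 of the MACS p, multiplied by 10, the deposited percent is a false discovery rate, and the deposited width is in bp. The deposited fold enrichment ratio was not used.

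Tags of peaks touching a gene or lying within 10 kb of it were summed whole and divided by filtered tags in M. Places without a listed peak added no tags. All 21887 protein-coding genes of RefSeq on GRCm38.p6 were measured in this way as the background; a ratio needs a peak in both libraries. Levels carry exact Poisson intervals and ratios exact conditional binomial (Clopper-Pearson) intervals at 95%, computed in Python 3.11.15 with scipy 1.17.1. Tags amplified by PCR without molecular identifiers are not independent, so these cover counting error only. The counting was checked on simulated lists that kept the untreated peaks and changed only their tags. That check could not test the effect of peaks that are lost or split. Groups were taken from the labels. The alternatives tried were other windows (1 and 5 kb), depth scalings, peak thresholds, folds and quantities. The split into start and rest of a window, and the joined regions, also counted whole for a gene, were added after seeing the data. The members and lists were chosen with earlier results of these data known. Named companion genes are the 2 highest and 2 lowest per mark and treatment with at least 50 tags in both lists. Exons and introns were not analysed here.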

Additional observations from a re-analysis of the deposited data

How the results depend on the processing

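Each count in the report was recomputed under every alternative. The H3K4me1 count after MM-401 (1 member called) became 2 with only peaks of score at least 100 (Krt18 joined Elf5), 3 by summed peak width (Elf5, Krt8 and Krt18) and 0 by density. The H3K4me1 count with 4-OHT (0) became 1, always Elf5, with windows of 1 or 5 kb, with peaks of score at least 100 and with lists of equal length, and 2 (Elf5 and Tfap2c) per M tags inside peaks and relative to the all-gene median. The H3K4me2 count after MM-401 (1) became 0 by density. The H3K4me2 count with 4-OHT (1) became 2 in 1 kb windows (Krt18 joined Elf5), and 0 at 2-fold and by density. The H3K4me3 count after MM-401 (1, Tfap2c) became 0 per M tags inside peaks, relative to the all-gene median, at 2-fold, by width and by density. The H3K4me3 count with 4-OHT (0) became 1 by width (Tead4, higher). The Mll1 peaks numbered 1 within 1 kb in place of 2. The cause was not tested for any of these. Elf5 changed sign after MM-401 by density, with log2 ratios of 0.04 for H3K4me1 and 0.08 for H3K4me2, since width and tags were lower together. Counts of lost peaks stayed within 1.5 times when 50% of a peak had to be covered. Of 647 values for single members under an alternative, 483 stayed inside the counting interval of the reported value. Beside these 2 Elf5 values, 78 values under 1.5-fold changed sign, 20 of them by width and 16 by density. Counting joined regions whole, an alternative added after seeing the data, kept each count of called members. Scaling per M tags inside peaks moved the all-gene median log2 ratio from -0.12 to 0.01 for H3K4me1 after MM-401 and from 0.05 to -0.08 for H3K4me2 with 4-OHT. No paired analysis was possible because each group held 1 library. With 1 library per group, spread between cultures is unknown, and the shallow MM-401 libraries list fewer peaks, at 82150, 60348 and 32191 against 119739, 89538 and 52912 in untreated cells for H3K4me1, H3K4me2 and H3K4me3.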
